A study of Rattus norvegicus with 12 samples.

Results

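Nuclear receptors are transcription factors that carry a DNA-binding domain and a ligand-binding domain in 1 protein, and 35 genes of this family in rat liver are described here. The members were taken as a list of symbols, and their probes were found through the RefSeq accession that each array probe carries. Of the 35 genes, 32 had a matched probe, with 48 probes in all, and 43 probes of 30 genes were bright enough to test, among 21874 genes tested on the array. Nr6a1, Hnf4g and Rora had no matched probe and were not analysed here. Vdr, the vitamin D receptor, was well above background on 2 control and 2 low protein arrays, and Nr4a3 (NOR1) on 0 control arrays and 1 low protein array, so neither was tested. These 30 genes are therefore the members with measurable signal, not the whole family.

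The livers came from 12 adult male Wistar rats, an outbred strain, with 1 rat on each single-colour microarray. The control group of 6 rats ate a diet with 14% casein, and the low protein group of 6 ate a diet of equal energy content with 5% casein, both for 4 weeks. The arrays were made to follow the liver enzymes behind metabolites that respond to protein undernutrition. Levels below are log2 signal relative to the 75th percentile of the same array, so a level of 0 lies at that percentile, and levels of different probes are not comparable. A difference is the mean of the low protein rats minus the mean of the control rats on this log2 scale, given with its standard error (SE), and n is 6 rats per diet throughout. Each array had 58717 spots other than controls, and between 61.2% and 69.95% of them were well above background. All 8 hepatocyte markers of a marker list were well above background on all arrays, and their summed level, with the 75th percentile set to 100, was 64070 to 74290 in control rats and 54520 to 70750 in low protein rats. Of these 8 markers 2 were lower on low protein, Apoa1 and Cps1. In whole liver, fewer cells of a type and less RNA per cell cannot be told apart.

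Most of these receptors bind DNA in pairs, many with a retinoid X receptor (RXR) as the partner, at repeats of the core sequence AGGTCA. Their ligands include bile acids, oxysterols, fatty acids, steroids, thyroid hormone and retinoic acid. In receptors paired with RXR, a ligand can switch the bound receptor from repression to activation by exchanging corepressors for coactivators. In hepatocytes the family sets bile acid synthesis, lipid handling, drug metabolism and gluconeogenesis, and a change in a receptor's transcript is only 1 of several ways in which its activity can change.

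Diet went with a changed transcript level in 3 of the 30 receptors tested. Nr1i3, the constitutive androstane receptor (CAR), was about 2-fold higher on low protein, Rarb, a retinoic acid receptor, was about 2-fold lower, and Nr5a2 (liver receptor homolog 1, LRH-1) was lower by a smaller amount. A gene passed where limma's p, adjusted by the Benjamini-Hochberg method over all genes tested, was under 0.05. The members' share of 10.0% stood beside 6.53% of all genes (3.48% higher and 3.05% lower). With 30 genes this share lies near the background, so it is no result about the family as a whole. At an unadjusted p under 0.05 there were 5 such members, against 21.6% of all genes. No member had groups that did not overlap, which 4.98% of all genes had. The median difference of the members was -0.04, beside -0.03 for all genes, and the median size of a difference was 0.18, beside 0.14. For 17 of the 30 members (56.7%) the 95% confidence interval lay within a 1.5-fold change in either direction, against 69.9% of all genes, so for the other 13 the arrays did not limit the change to that size. The difference had the same sign on both slides for 20 of the 30, a count with no share of all genes beside it. Slide 2 carried only controls 2 and 4, with animals 5 and 6 of the low protein diet. Slide 1 carried the rest. A slide 2 difference therefore rests on few arrays and sets unlike rat numbers against each other. Nr1d2, a non-member receptor whose level followed rat number, differed by -0.52 on slide 1 and 1.71 on slide 2. The slides are thus not equal replicates.

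**Figure D1:**
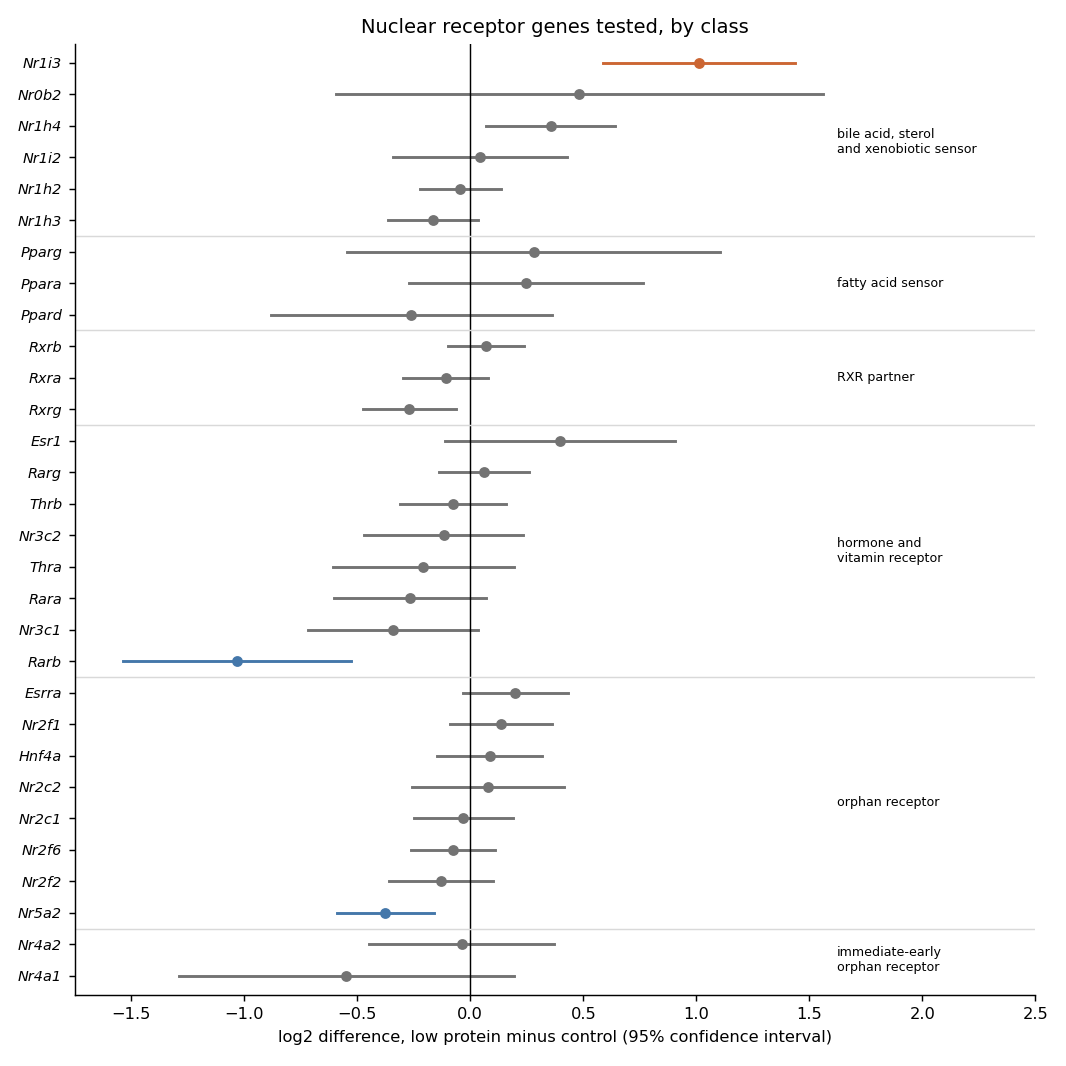
The log2 difference (low protein minus control, horizontal axis) of each of the 30 receptors tested, grouped by role, with bars for the 95% confidence interval and n = 6 rats per diet. Nr1i3 (orange) lies at 1.01 and Rarb and Nr5a2 (blue) at -1.03 and -0.38; grey marks genes that did not pass the adjusted threshold, and Nr0b2 has a wide interval around 0.48.

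CAR, encoded by Nr1i3, is a sensor of drugs and other foreign compounds that induces cytochrome P450 enzymes, and it is active in part without ligand. Its level was -0.63 at the lowest, 0.09 at the median and 0.27 at the highest in control rats. In low protein rats it was 0.27, 1.04 and 1.19. Of the 6 low protein rats 5 lay above every control rat, and low protein rat 3 lay just below control rat 1, both at 0.27. Control levels fell with rat number, from 0.27 in rat 1 to 0.06 in rat 4, -0.51 in rat 5 and -0.63 in rat 6. Low protein levels did not follow that order, so the size of the difference varied with rat number, and the cause was not tested. The difference was 1.01 ± 0.20 (2.02-fold, 95% interval 0.59 to 1.44, limma adjusted p = 0.0101), and it was 1.06 on slide 1 and 0.93 on slide 2. The other Nr1i3 probe gave 0.94 ± 0.23 (adjusted p = 0.0311 over all probes), but that probe passed in only 3 of the 12 analyses that left out 1 rat, whereas the probe used for the gene passed in all 12.

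The start of the Nr1i3 gene is shown because it is the receptor that rose. The window is chr13:86165170-86165469 on the plus strand of the GRCr8 assembly in RefSeq, from 250 bases before to 50 bases after the transcript start, with no capitals because the core sequence was not found in it on either strand.
Nr1i3 promoter: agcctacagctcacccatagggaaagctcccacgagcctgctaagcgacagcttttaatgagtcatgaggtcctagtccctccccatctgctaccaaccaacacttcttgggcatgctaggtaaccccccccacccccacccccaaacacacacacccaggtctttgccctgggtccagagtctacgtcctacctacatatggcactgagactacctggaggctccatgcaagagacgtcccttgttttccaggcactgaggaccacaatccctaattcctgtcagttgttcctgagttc

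Genes listed as targets of CAR or of the pregnane X receptor (PXR) did not move together. Counts of listed genes here and below stand beside 6.53% of all genes passing and a median difference of -0.03 over all genes. Over the union of the lists 15 of 138 tested genes passed (10.9%). The lists were chosen with earlier results of these data known, so such shares do not show enrichment. Of the 15 tested of an 18-gene list, 1 was higher and 2 were lower, and the median difference was 0.02. An unadjusted p under 0.05 was found for 4 of the 15, and 10 differences were positive and 5 negative. Cyp3a2, a steroid and drug hydroxylase, was higher (0.54 ± 0.13, adjusted p = 0.0310). Cyp3a9, another member of that subfamily, was lower (-1.20 ± 0.28, adjusted p = 0.0271), as was Cyp2c7, a retinoid- and steroid-hydroxylating P450 (-0.57 ± 0.12, adjusted p = 0.0156). Cyp2b2, a classical CAR target, named after its values were seen, differed by 0.30 ± 0.10 with adjusted p = 0.116 and an unadjusted p under 0.05. Its relative Cyp2b1 had no matched probe. These P450 genes have close paralogs, so their signals are uncertain where a probe could bind several of them. The call was lost in 10 of 25 alternative settings for Cyp3a2, in 5 for Cyp3a9 and, for Cyp2c7, without scaling.

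PXR itself is encoded by Nr1i2. Its level was 2.99, 3.72 and 3.92 (lowest, median and highest) in control rats. On low protein it was 3.35, 3.57 and 3.92. The ranges coincide for the most part, and the difference was 0.04 ± 0.18.

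Rarb encodes retinoic acid receptor beta, which binds retinoic acid, the active form of vitamin A, and is itself a textbook target of that ligand. Its level was 1.26, 1.64 and 2.21 in control rats (lowest, median, highest). In low protein rats it was -0.06, 0.69 and 1.47. All low protein rats but rat 2 lay below every control rat. The difference was -1.03 ± 0.23 (2.04-fold lower, 95% interval -1.54 to -0.53, adjusted p = 0.0209). It was -0.76 on slide 1 and -1.59 on slide 2. The other Rarb probe, much dimmer, gave -1.12 ± 0.23 (adjusted p = 0.0136 over all probes). Its size depended on the background handling, at -0.40 with normexp and -0.60 in the deposited value table, where the brighter probe stayed at -0.96 and -0.97. The call stayed in all 12 analyses without 1 rat and was lost only without the filter on dim probes, where more genes are tested (adjusted p = 0.0579).

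The Rarb window (GRCr8, RefSeq, chr15:11336142-11336441, plus strand) is shown because it holds a retinoic acid response element. Capitals mark the match to the classical element of this gene, GGTTCA and AGTTCA with any 5 letters between them, searched on both strands, which begins at position 25 counted from the transcript start.
Rarb promoter: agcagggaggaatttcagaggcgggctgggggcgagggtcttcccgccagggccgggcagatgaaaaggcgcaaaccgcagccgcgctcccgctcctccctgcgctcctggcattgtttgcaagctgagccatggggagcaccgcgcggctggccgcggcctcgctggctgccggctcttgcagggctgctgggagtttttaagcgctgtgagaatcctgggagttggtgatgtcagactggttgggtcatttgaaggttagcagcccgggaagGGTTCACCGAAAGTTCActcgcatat
Of 33365 distinct RefSeq promoter windows of this length, 3 held that motif (0.00899%). The pattern is that of this gene itself, so its match here was set in advance. The share does not describe retinoic acid response elements in general. The letters describe the window and say nothing about binding in these livers.

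Among genes of retinoic acid metabolism, Aldh1a1 and Cyp26b1 were higher on low protein. Aldh1a1, which oxidises retinal to retinoic acid, ran from 1.36 to 3.33 in control rats and from 3.37 to 4.58 in low protein rats, so all low protein rats lay above all control rats (1.89 ± 0.34, adjusted p = 0.00677). Cyp26b1, which degrades retinoic acid, ran from -7.23 to -3.57 in control rats and from -4.18 to -2.59 on low protein (1.88 ± 0.49, adjusted p = 0.0399). The size of this difference depended on the background handling, at 0.80 with normexp background correction and 1.196 in the deposited value table. In control rats 5 of the 6 arrays measured Cyp26b1 well above background, and its call was lost in 9 of 24 settings. Among the 8 tested retinoic acid receptor targets on the list, of 9, 1 was higher (Cyp26b1) and 1 was lower, and 7 of the 8 differences were positive with a median of 0.12. Markers of stellate cells, which store vitamin A in liver, had a summed level of 406.6 to 532.4 in control rats and 374.5 to 516.5 in low protein rats. None of the 10 passed the test, and their part in the Rarb result was not tested.

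**Figure D2:**
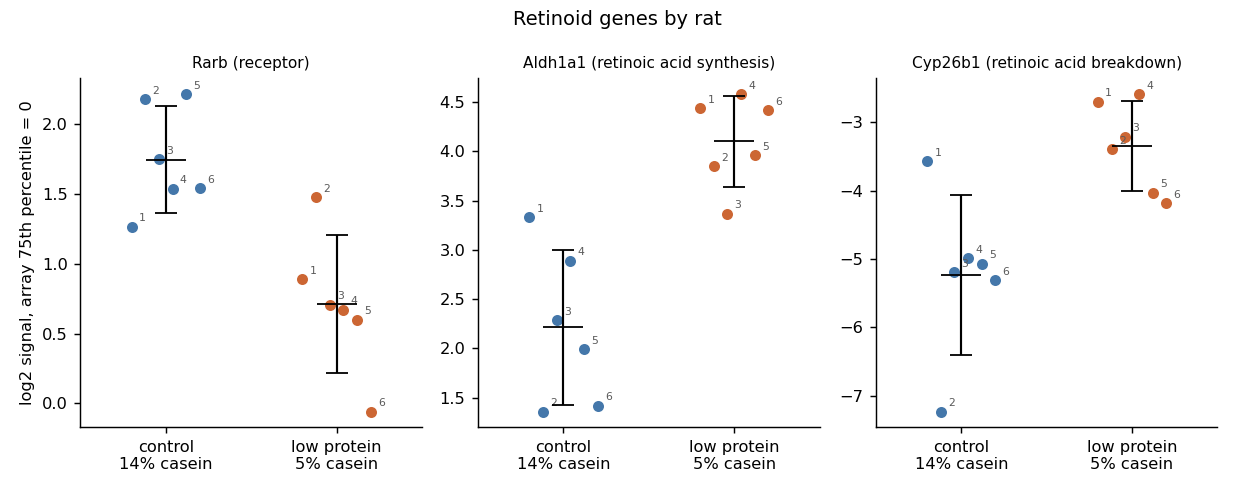
Levels of Rarb, Aldh1a1 and Cyp26b1 in each rat (log2 signal, 75th percentile of the array at 0, vertical axes differ); points are rats with their number, the bar is the mean and whiskers are SD, n = 6 per diet. Aldh1a1 does not overlap between diets and is higher on low protein, Cyp26b1 overlaps through control rat 1, and Rarb overlaps through low protein rat 2.

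The sister receptors Rara and Rarg did not pass. Rara was -1.10, -0.76 and -0.31 in control rats (lowest, median, highest) and -1.28, -0.95 and -0.66 on low protein (-0.27 ± 0.16, adjusted p = 0.354). Rarg differed by 0.06 ± 0.09, with a 95% interval of -0.14 to 0.26. The difference between Rarb and its sisters was not tested.

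LRH-1, encoded by Nr5a2, binds DNA as a monomer and drives bile acid synthesis genes, and it is held back by SHP, the product of Nr0b2. Its level was -1.09, -1.01 and -0.74 in control rats. In low protein rats it was -1.58, -1.35 and -1.02. All low protein rats but rat 6 lay below every control rat. The difference was -0.38 ± 0.10 (1.30-fold lower, 95% interval -0.59 to -0.16, adjusted p = 0.0406), from a single probe. It was -0.46 on slide 1 and -0.20 on slide 2. This call lies close to the threshold. It was kept in 2 of the 12 analyses without 1 rat, those without control rat 1 or low protein rat 6, and was lost in the other 10, with adjusted p between 0.0587 and 0.0805. It was lost too without scaling (difference -0.24, adjusted p = 0.463) and without the filter on dim probes (adjusted p = 0.120).

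The Nr5a2 window (GRCr8, RefSeq, chr13:50984889-50985188, minus strand, written 5′ to 3′ as the gene reads) is shown because it holds the core sequence AGGTCA in 2 places, in capitals, beginning at -134 and at 4 from the transcript start.
Nr5a2 promoter: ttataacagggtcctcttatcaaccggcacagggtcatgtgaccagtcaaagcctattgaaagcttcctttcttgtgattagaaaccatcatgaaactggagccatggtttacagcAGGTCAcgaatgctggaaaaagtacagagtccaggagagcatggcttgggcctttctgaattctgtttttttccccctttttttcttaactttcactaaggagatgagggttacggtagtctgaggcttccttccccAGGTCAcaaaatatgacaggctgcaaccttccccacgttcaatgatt
Of all 33365 windows 16.2% held AGGTCA on either strand, and of the 29 members with a window in the table, Nr5a2 and Rarg did.

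**Figure D3:**
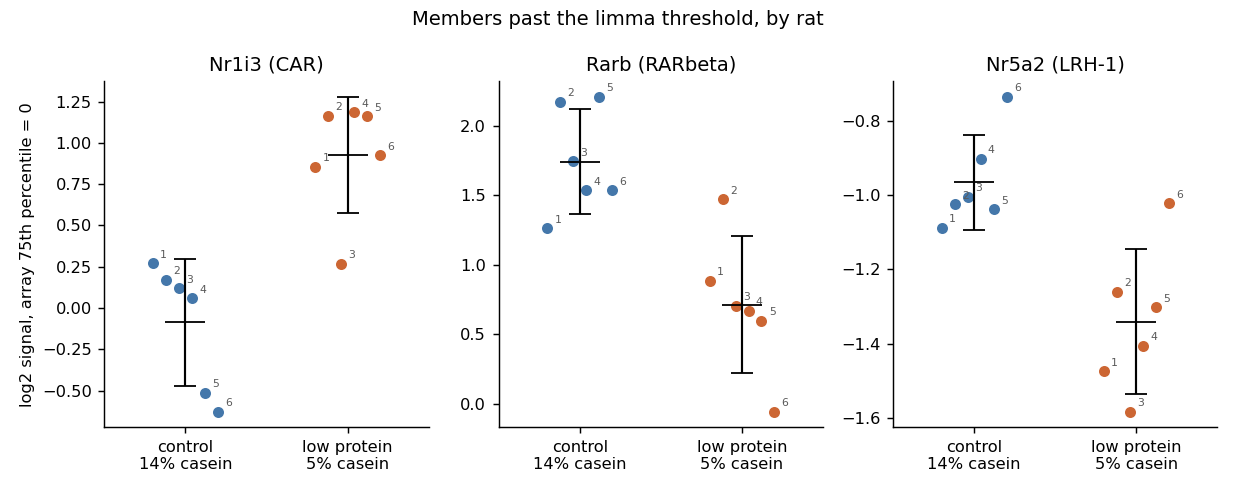
Levels of Nr1i3, Rarb and Nr5a2 in each rat (log2 signal, 75th percentile of the array at 0, vertical axes differ), with rat numbers; the bar is the mean and whiskers are SD, n = 6 per diet. In each panel 5 of the 6 low protein rats lie outside the whole control range and 1 lies inside it.

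FXR, the bile acid receptor encoded by Nr1h4, was 2.96, 3.15 and 3.31 in control rats (lowest, median, highest). On low protein it was 3.15, 3.40 and 3.98. Of the low protein rats 5 lay above every control rat, yet the difference of 0.36 ± 0.13 missed the adjusted threshold in limma (adjusted p = 0.133), with an unadjusted p under 0.05. It was 0.48 on slide 1 and 0.10 on slide 2, and the other probe gave 0.28. Nr0b2, the FXR-induced corepressor SHP, varied widely between rats of the same diet. It ran from 1.08 (control rat 3) to 4.25 in control rats and from 2.64 to 4.50 on low protein (0.48 ± 0.50, adjusted p = 0.635). Without control rat 3 the Nr0b2 difference was 0.049. Of 7 FXR targets tested, of 9 on the list, none passed in limma, and 2 had an unadjusted p under 0.05. These were the secreted protein gene Fetub (-0.27 ± 0.11, adjusted p = 0.174) and Apoc2, the lipoprotein lipase cofactor (-0.33 ± 0.10, adjusted p = 0.0587). Apoc2 passed in 6 of 25 other settings and Fetub in 1. None of the 4 bile acid synthesis genes passed, and none had an unadjusted p under 0.05. The smallest p values there belonged to Cyp7b1, the oxysterol hydroxylase (-0.58 ± 0.37), and to Cyp8b1, the sterol 12-hydroxylase (0.27 ± 0.21).

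The liver X receptors answer to oxysterols and induce cholesterol export and fatty acid synthesis genes. Nr1h3 (LXRalpha) was 3.37 to 3.83 in control rats and 3.20 to 3.61 on low protein (-0.16 ± 0.09, adjusted p = 0.332), with 3 low protein rats below every control rat. Nr1h2 (LXRbeta) differed by -0.04 ± 0.08. None of the 10 LXR targets tested, of 11, passed in limma, and 3 had an unadjusted p under 0.05. Srebf1, the master regulator of lipogenesis, was nearest (-0.86 ± 0.25, adjusted p = 0.0591). It passed in 6 of 25 other settings. Lpcat3, a phospholipid-remodelling enzyme, differed by -0.39 ± 0.12 (adjusted p = 0.0843) and passed in 3. Of the 10 differences 9 were negative, with a median of -0.21, though without scaling 7 were.

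The peroxisome proliferator-activated receptors sense fatty acids, and PPARalpha governs hepatic fatty acid oxidation. None of the 3 passed. Ppara was -3.41, -2.64 and -2.26 in control rats (lowest, median, highest). On low protein it was -3.31, -2.43 and -2.08, an overlapping range (0.25 ± 0.24, adjusted p = 0.609). Ppard was -5.06 to -3.77 and -5.44 to -4.17 (-0.26 ± 0.29). Pparg, whose values spread most among the 3, was -4.14 to -1.59 and -3.11 to -1.56 (0.28 ± 0.38), with rat 1 highest in both diets. Of 6 adipocyte markers 3 were tested, with a median difference of 0.53. Cidec, a lipid droplet protein named here because it passed, was higher on low protein (0.74 ± 0.13, limma adjusted p = 0.00691). Adipoq, Plin1 and Lep were below background on all arrays. The summed level of the 6 markers was 283.7 to 464.1 in control rats and 328.5 to 434.9 on low protein. The part of these markers in the Pparg values was not tested.

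Of the 18 PPARalpha targets tested, of 19, 4 were higher and none lower, with a median difference of 0.21. They were Fgf21, a liver hormone (4.09 ± 0.38, adjusted p = 0.000111), Vnn1, a pantetheinase (2.29 ± 0.33, adjusted p = 0.00186), Ech1, a mitochondrial and peroxisomal isomerase of fatty acid oxidation (0.99 ± 0.16, adjusted p = 0.00362), and Cpt2, the inner carnitine palmitoyltransferase (0.69 ± 0.12, adjusted p = 0.00675). All 4 passed in all 25 alternative settings. Fgf21 is also a known target of the amino acid response factor ATF4, so it is not specific to this receptor. An unadjusted p under 0.05 was found for 9 of the 18 targets, beside 21.6% of all genes. This list too was chosen with earlier results known, so the share does not show enrichment.

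The retinoid X receptors serve as partners of many of the above. Rxra was -3.10 to -2.74 in control rats and -3.16 to -2.81 on low protein (-0.11 ± 0.09). Rxrb differed by 0.07 ± 0.08. Rxrg was 0.77, 0.91 and 1.14 in control rats (lowest, median, highest) and 0.49, 0.66 and 0.96 on low protein, with 5 low protein rats below every control rat. Its difference of -0.27 ± 0.10 missed the adjusted threshold in limma (adjusted p = 0.114), with an unadjusted p under 0.05.

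Steroid and thyroid hormone receptors did not pass either. Nr3c1, the glucocorticoid receptor, was 0.37, 0.70 and 1.34 in control rats and -0.11, 0.47 and 0.79 on low protein (-0.34 ± 0.17, adjusted p = 0.279). Its 3 probes ran from -0.34 to 0.06, so they did not share a sign. Nr3c2, the mineralocorticoid receptor, differed by -0.12 ± 0.16. Esr1, estrogen receptor alpha, ran from -6.49 to -5.65 and from -6.48 to -4.83 (0.40 ± 0.24, adjusted p = 0.365), near the dim end of the array, and the difference was 0.064 with normexp and 0.19 in the deposited value table. Thra, thyroid hormone receptor alpha, gave -0.21 ± 0.18 from its brighter probe and -0.45 ± 0.16 from the other, which is annotated to a different transcript (limma adjusted p = 0.111 over all probes; -0.24 with normexp). Thrb, the main hepatic thyroid hormone receptor, differed by -0.08 ± 0.11.

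Of the 15 glucocorticoid receptor targets, 13 differences were negative and the median was -0.29, but only Tat, tyrosine aminotransferase, passed (-2.02 ± 0.32, adjusted p = 0.00361). An unadjusted p under 0.05 was found for 6 of the 15. Without scaling 9 of the 15 were negative. None of the 9 thyroid hormone receptor targets passed in limma, and 2 had an unadjusted p under 0.05. These were Me1, malic enzyme (0.92 ± 0.26, adjusted p = 0.0524), and Gpd2, mitochondrial glycerol phosphate dehydrogenase (0.69 ± 0.20, adjusted p = 0.0609), which passed in 9 and 5 of 25 other settings. Of 16 tested genes that supply or carry ligands, of 20, 1 was higher and 3 were lower. The higher gene was Aldh1a1, and the lower ones included Slc16a10, a transporter of aromatic amino acids and thyroid hormone (-1.83 ± 0.23, adjusted p = 0.000729), and Serpina6, the corticosteroid-binding globulin (-0.52 ± 0.14, adjusted p = 0.0390). The Serpina6 call was lost in 12 of 25 alternative settings.

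Among orphan receptors other than Nr5a2 no gene passed. Hnf4a, a main regulator of hepatocyte identity, was 3.25, 3.57 and 3.78 in control rats (lowest, median, highest) and 3.50, 3.58 and 3.92 on low protein (0.09 ± 0.11). Its 95% interval of -0.15 to 0.32 lies within a 1.5-fold change, and its 3 probes gave 0.06 to 0.36, where the highest was 0.22 with normexp. Of its 10 listed targets Apoa1, the main HDL protein, was lower (-0.84 ± 0.14, adjusted p = 0.00387) and the other 9 did not pass. Esrra, which controls mitochondrial genes with PGC-1 coactivators, differed by 0.20 ± 0.11 (adjusted p = 0.307). The testicular receptors Nr2c1 and Nr2c2 differed by -0.03 ± 0.10 and 0.08 ± 0.16. The COUP transcription factors Nr2f1 and Nr2f2 differed by 0.14 ± 0.10 and -0.13 ± 0.11, and Nr2f6 by -0.08 ± 0.09.

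None of 14 tested coregulators, of 18, passed in limma, and 2 had an unadjusted p under 0.05. Ncoa2, a p160 coactivator, differed by -0.43 ± 0.14 (adjusted p = 0.0911; -0.26 with normexp) and passed in 1 of 25 other settings. Ppargc1a (PGC-1alpha), the coactivator of the gluconeogenic and oxidative programmes, differed by -0.76 ± 0.33 (adjusted p = 0.195) and was well above background on 4 of the 6 low protein arrays. With normexp the Ppargc1a difference was -0.19, and in the deposited value table -0.28.

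NR4A receptors are induced within minutes of a stimulus and act without a classical ligand. Nr4a1 (NUR77) was -4.55, -3.72 and -2.76 in control rats (lowest, median, highest). On low protein it was -4.55, -4.38 and -3.07, with rat 4 apart from the other low protein rats (-0.55 ± 0.34, adjusted p = 0.392; -0.35 with normexp). Nr4a2 (NURR1) differed by -0.04 ± 0.19. Of 10 tested immediate-early genes, of 12, Btg2, an antiproliferative factor, was lower (-0.99 ± 0.23, adjusted p = 0.0243) and the others did not pass. Its call was lost without the filter on dim probes.

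**Figure D4:**
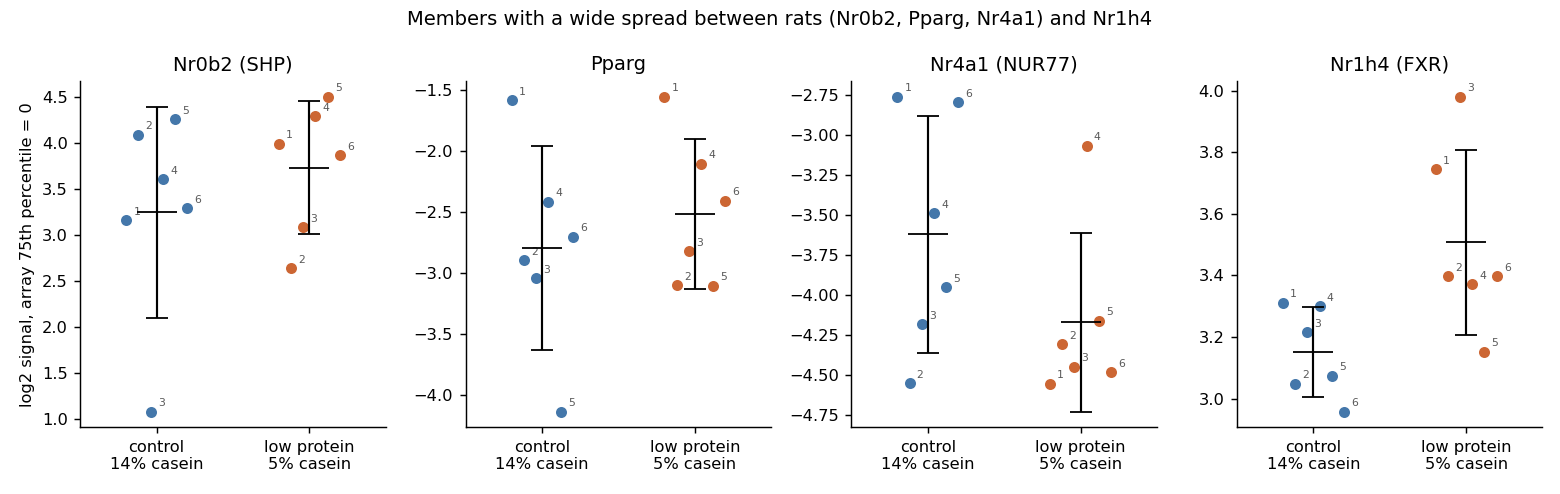
Levels of Nr0b2, Pparg, Nr4a1 and Nr1h4 in each rat (log2 signal, 75th percentile of the array at 0, vertical axes differ), with rat numbers; the bar is the mean and whiskers are SD, n = 6 per diet. Control rat 3 stands low for Nr0b2 at 1.08 and low protein rat 4 high for Nr4a1 at -3.07.

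The spread within a diet exceeded an SD of 0.5 for 5 of the 30 members: Nr0b2, Ppard, Pparg, Esr1 and Nr4a1. For Ppard the spread followed rat number in both diets. Control rats 1 to 3 lay at -4.36 to -3.77 and control rats 4 to 6 at -5.06 to -4.93. Low protein rats 1 to 3 lay at -4.74 to -4.17 and rats 4 to 6 at -5.44 to -4.94. The SE of Ppard includes this ordered spread, and its cause was not tested. Clock output differed between rats as well: Dbp, a clock-controlled transcription factor, ran from -0.33 to 3.71 in control rats and from -0.51 to 4.00 in low protein rats, highest in rat 6 of both diets. None of 13 tested clock genes passed in limma, and 0 had an unadjusted p under 0.05. With the Dbp level of each rat as a covariate, an alternative chosen after seeing the data, the same 3 members passed, Nr1i3 at 1.02, Rarb at -1.02 and Nr5a2 at -0.38 (adjusted p = 0.00759). Of 13 other receptor genes listed outside the members, 3 were tested and none passed in limma, with 0 at an unadjusted p under 0.05. They included the REV-ERB clock repressors Nr1d1 (-0.04 ± 0.28) and Nr1d2 (0.22 ± 0.69). Nr1d2 rose with rat number in both diets. It was -0.69 to 0.40 in control rats 1 to 3 and 1.95 to 2.49 in control rats 4 to 6. On low protein it was -0.29 to 0.41 and 2.09 to 2.56, so its SE includes this spread too.

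Of the 11 members with several bright probes, 9 had probes that shared a sign and 2, Nr2c2 and Nr3c1, did not. Over all 25704 probes 6.69% passed, and 5 of the 43 member probes did, both of Nr1i3, both of Rarb and that of Nr5a2.

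**Figure D5:**
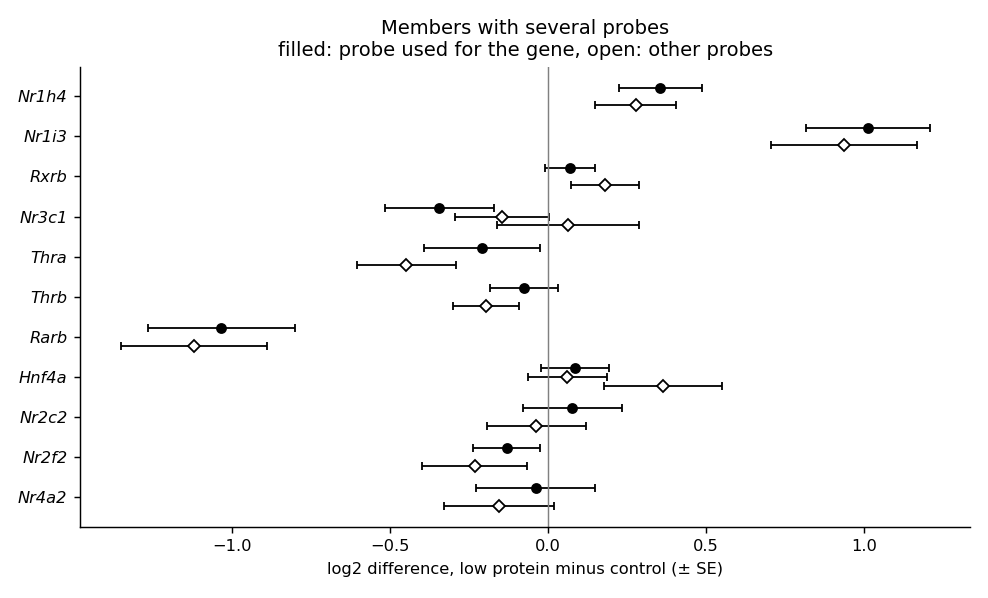
The log2 difference (low protein minus control) of each probe of the 11 members with several probes, with bars for the SE and n = 6 rats per diet; filled points are the probe used for the gene and open points the others. The probes of Nr1i3 (1.01 and 0.94) and of Rarb (-1.03 and -1.12) lie close together with the processed signal, which for Rarb did not hold with normexp (-0.96 and -0.40), and those of Nr3c1 spread from -0.34 to 0.06.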

How the data were processed

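Cy3-labelled liver RNA was hybridised to Agilent single-colour arrays, per the labels. Agilent Feature Extraction 12.0.3.1 read the images, per the file headers. The authors' deposited scanner files give a processed intensity that is background-subtracted, linear and unscaled between arrays, while their series table repeats the median intensity of 100% of spots.

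Here, log2 was taken of the processed intensity and the array's 75th percentile over non-control spots subtracted. Outlier-marked spots were left out and spots of a probe averaged. A probe was kept if it was well above background on 5 or more arrays in either diet of 6, and the brightest kept probe represented its gene. RefSeq accessions of probes were looked up in a GRCr8 gene table, which named 21215 of 45598 probes (46.5%, 16667 genes). The headers name another build, so printed coordinates belong to RefSeq's promoter table, where 29 of the 35 members were found. limma 3.58.1 (R 4.3.3; lmFit, then eBayes) gave two-sided p-values, adjusted by Benjamini-Hochberg across the 21874 genes, or across probes where so stated. The scripts were tested on simulated data. Filtering removes the noisiest probes, and folds of dim probes are compressed or uncertain. Array number limits precision; the median SE was 0.13.

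The arrays lay on 2 slides, and slide and scan coincide. Other settings tried were normexp (offset 50, on the median signal, since no mean signal column is in the files used), other scalings, the series table, filters, outliers kept, probe means, a robust spread, blocks for slide, scan and rat number, and omission of each array. All members were named; from each list, at most 4 passing genes by adjusted p, or at most 2 by p where no gene passed; a few listed genes are not reported here. Members and lists were chosen with earlier results of these data known. Python 3.11.15 with matplotlib 3.10.9, numpy 2.4.6 and pandas 2.3.3 made tables and figures.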

Additional observations from a re-analysis of the deposited data

Results flagged for a closer look

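Within each diet, the highest or lowest rat was set against its nearest neighbour by Dixon's criterion, which compares that gap with the whole range of the 6 rats. Of 60 groups of rats, 3 had such a rat, where chance gives about 1 in 20. Control rat 3 had the low Nr0b2 level of 1.08, with the nearest control rat at 3.16. Low protein rat 3 had the low Nr1i3 level of 0.27, with the nearest low protein rat at 0.85. Low protein rat 4 had the high Nr4a1 level of -3.07, with the nearest at -4.16. Without control rat 3 the Nr0b2 difference was 0.049 (0.48 with it), and over all single rats left out it ranged from 0.049 to 0.70. Leaving out any of the 12 rats in turn kept the Nr1i3 difference between 0.90 and 1.14, and it passed each time.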

How the results depend on the processing

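Across 25 alternative settings the 30 members gave 750 comparisons, of which 720 kept direction and side of the threshold, most of them for members that had not passed. In 13 a call was lost (12 for Nr5a2 and 1 for Rarb). In 17 the sign changed, all of them for differences that had not passed. The settings are not independent: the blocks for slide and for scan are the same fit, and 12 settings each leave out 1 rat. Without the filter on dim probes 1 member passed (Nr1i3) and 2 member probes. Leaving out 1 rat gave 2 to 3 members, 3 to 5 member probes and 12 to 17 listed genes. Over all genes 1429 passed, against 891 without scaling, 618 without the filter and 873 without control rat 3. Scaling moved the median of all genes from -0.03 to 0.11 when left out, and 21 rather than 13 of 30 member differences were then positive. Without scaling the sign turned for Nr1h2 (0.088), Rxra (0.023), Nr3c2 (0.014), Thrb (0.057), Nr2c1 (0.10), Nr2f2 (0.0020), Nr2f6 (0.055), Nr4a2 (0.094), Nr1d1 (0.092) and the other Nr2c2 probe (0.10). With normexp it turned for Nr2c2 (-0.045) and the dimmest Nr3c1 probe (-0.0090). Leaving out 1 rat gave ranges that include 0 for Nr1i2 (-0.071 to 0.11), Rarg (-0.00011 to 0.12), Nr2c1 (-0.10 to 0.018), Nr4a2 (-0.20 to 0.077), Nr1d1 (-0.16 to 0.20), Nr1d2 (-0.10 to 0.54), the other Nr2c2 probe (-0.12 to 0.052), the dimmest Nr3c1 probe (-0.071 to 0.21) and an Hnf4a probe (-0.031 to 0.11). The cause of these changes was not tested.

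The rat numbers were not taken as pairs, since not all correlations between the deviations of same-numbered rats passed the limit of 0.1. They ran from 0.0335 to 0.259, all positive, with 5 of the 6 over that limit. Only 2 of the 6 control rats correlated best with the low protein rat of their own number. This rule covers all genes together. Single genes, Ppard and Nr1d2 among them, did follow rat number in both diets, and the reason was not tested. With rat number as a replicate block the same count of 3 members passed, with 6 member probes and 19 listed genes (15 without the block) and 1411 genes in all. The added member probe was the dimmer Thra probe (-0.45, adjusted p = 0.0485 over all probes with the block, 0.111 without it). With the Dbp covariate 3 members and 21 listed genes passed.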
